A study of Mus musculus with 2 samples.

Results

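The Fc gamma receptors bind the constant part of IgG, and 5 mouse genes of this system were followed: Fcgr1, Fcgr3 and Fcgr4 (activating receptors), Fcgr2b (the inhibitory receptor) and Fcer1g (the signalling chain the activating receptors share). They were taken by gene symbol from the feature lists of both count matrices, so 5 of 31053 listed genes are described, and all 5 were found. Single-cell RNA was counted in cultures that the labels call bone marrow derived macrophages, grown from 129Sv marrow with 50 ng/ml M-CSF and 10% fetal bovine serum. On day 7 cells were given, for 18 h, either 1 µg/ml of a truncated Tamm-Horsfall protein (THP, a kidney protein also called uromodulin, here in a form that does not polymerise) or its vehicle, 5% dextrose, and the labels give no number of mice. Each group was 1 library, so no difference below has a replicate check, and treatment cannot be told apart from culture dish or library preparation.

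An activating Fc gamma receptor that is cross-linked by IgG-coated particles passes its signal through the ITAM motif of the FcRγ chain, the product of Fcer1g, to Syk, and this drives phagocytosis, cytokine release and antigen uptake. FcγRIIb carries an ITIM motif instead, recruits the phosphatase SHIP1 (Inpp5d) and damps the signal, so the balance between the activating receptors and FcγRIIb sets how strongly a macrophage answers an immune complex. FcγRI (Fcgr1) is the high-affinity receptor and is known to be induced by interferon, FcγRIII (Fcgr3) is the widely expressed low-affinity receptor, and FcγRIV (Fcgr4) binds IgG2a and IgG2b.

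In GENCODE M21 on GRCm38, 4 of the 5 genes lie on chromosome 1. Fcgr2b spans chr1:170958617-170976547 on the minus strand, Fcgr4 chr1:171018920-171029761 on the plus strand, Fcgr3 chr1:171051174-171064935 on the minus strand and Fcer1g chr1:171229572-171234365 on the minus strand. Fcgr4 and Fcgr3 are direct neighbours, 21412 bases apart. Fcgr1 lies alone on chromosome 3 (chr3:96282909-96293969, minus strand). The bases just upstream of each RefSeq start are shown because the levels of Fcgr1 and Fcgr4 were higher in the interferon-high state described further on. Each is 120 bases, 5′ to 3′ on the gene's strand, from RefSeq on GRCm38.p6. The windows of Fcgr3 and Fcgr2b lie wholly inside the GENCODE spans above, since the RefSeq starts used differ from the outermost GENCODE ones. Capitals mark matches, on either strand, to 2 motifs searched from 250 bases before to 50 after the start: the interferon-gamma-activated site TTCNNNGAA and the purine-rich box GAGGAA, bound by PU.1, the lineage factor of macrophages.

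Fcgr1, chr3:96293970-96294089: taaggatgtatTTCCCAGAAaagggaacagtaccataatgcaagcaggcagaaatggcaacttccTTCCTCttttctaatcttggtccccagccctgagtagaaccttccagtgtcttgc
Fcgr3, chr1:171059404-171059523: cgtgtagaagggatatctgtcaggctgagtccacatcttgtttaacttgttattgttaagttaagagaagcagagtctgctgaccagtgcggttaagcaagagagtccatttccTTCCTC
Fcgr4, chr1:171018806-171018925: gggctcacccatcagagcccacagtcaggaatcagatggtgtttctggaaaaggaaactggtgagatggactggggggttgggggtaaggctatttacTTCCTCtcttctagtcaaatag
Fcgr2b, chr1:170976072-170976191: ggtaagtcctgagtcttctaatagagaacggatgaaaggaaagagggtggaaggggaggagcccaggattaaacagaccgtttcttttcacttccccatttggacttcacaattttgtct
Fcer1g, chr1:171234350-171234469: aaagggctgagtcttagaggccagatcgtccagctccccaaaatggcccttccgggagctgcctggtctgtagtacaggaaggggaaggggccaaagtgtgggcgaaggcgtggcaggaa

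The interferon-gamma-activated site was found in the window of Fcgr1, with its first base at position -109 from the start, and in no other of the 5 windows. Among 27025 RefSeq promoter windows of the same length, 8.47% held it. The purine-rich box was present upstream of the RefSeq starts of all 3 activating receptors. Its first base lay at -55 in Fcgr1, -22 in Fcgr4 and -6 in Fcgr3 (-15 from a second start listed for Fcgr3). The box was in 28.3% of all windows. The letters of neither motif were in the windows of Fcgr2b or Fcer1g. The motifs do not overlap each other, and a match is a description of the letters, not a measured site.

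After filtering, 12123 cells with 224825484 unique molecular identifiers (UMIs, each standing for 1 captured RNA molecule) remained in the THP library, and 10978 cells with 207662132 UMIs in the vehicle library. Median depth was 16113 and 17223 UMIs per cell. There were 38 kept cell barcodes shared by the libraries. The cells were sorted into classes by 6 marker genes each, where a marker counted as on at 1 UMI per 10000 or more and a cell took the class with most markers on, if at least 3 were. Although the label says macrophages, the macrophage gate (C1qa, C1qb, Adgre1, Mrc1, Msr1, Mertk) held 36.1% of THP cells and 25.8% of vehicle cells. Myeloid progenitors made up 12.2% and 16.6%, immature neutrophils 8.74% and 12.4%, mature neutrophils 6.27% and 9.47%, and monocytes 5.93% and 8.94%. A further 22.7% and 17.3% passed no gate and 5.42% and 6.88% tied between gates. A gate is a range on a score and not a cell type: 1469 of 4374 THP and 942 of 2835 vehicle macrophage-gated cells sat at the minimum of 3 markers.

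Over all kept cells, Fcer1g was by far the most abundant of the 5, followed by Fcgr3, Fcgr1, Fcgr2b and Fcgr4, with or without division by length. In CPM (UMIs of a gene per 1e+06 UMIs of the library) per kilobase of the longest transcript, the levels in the THP library were 3182 for Fcer1g, 164 for Fcgr3, 43.1 for Fcgr1, 12.5 for Fcgr2b and 10.6 for Fcgr4. The vehicle library gave the same order, at 2406, 180.1, 32.2, 16.3 and 10.9. A UMI stands for 1 captured molecule, so counts need not grow with transcript length (683 bases for Fcer1g, 3544 for Fcgr2b). CPM below is undivided. Undivided by length, Fcer1g was 2173 CPM with THP and 1643 CPM with vehicle. Fcgr2b and Fcgr4 lay further apart than when divided, at 44.3 and 13.3 CPM with THP and 57.8 and 13.7 CPM with vehicle. Fcgr2b and Fcgr3 are the only pair whose transcripts share runs of 50 identical bases (12.8% of the runs of Fcgr3 and 4.75% of those of Fcgr2b). None of these lay in the last 500 bases of either transcript.

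Between the libraries, Fcgr1 and Fcer1g were higher with THP, Fcgr2b was lower, and Fcgr3 and Fcgr4 differed little. Fcgr1 stood at 111 CPM with THP (exact Poisson 95% interval 110.1 to 113) and at 83.5 CPM with vehicle (82.2 to 84.7). Its log2 ratio, of CPM + 1 and THP over vehicle throughout, was 0.41, at percentile 96.0 of 8012 genes with at least 10 CPM in a library. Fcer1g stood at 2173 CPM (2167 to 2179) and 1643 CPM (1638 to 1649), a log2 ratio of 0.40 and percentile 95.7. The intervals and those below cover counting error only. The median gene was itself lower with THP, at -0.18, and the central 95% of genes ran from -1.04 to 0.56, so all 5 genes lay inside the common range.

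Fcgr2b stood at 44.3 CPM (43.4 to 45.2) with THP and 57.8 CPM (56.8 to 58.9) with vehicle, a log2 ratio of -0.38 and percentile 32.2, 0.20 below the median gene. With TMM factors its ratio shrank to -0.10, and with the length correction to -0.14. Fcgr3, at 220.3 and 243 CPM (log2 ratio -0.14), was lower with THP on library totals but lay 0.04 above the median gene, and with TMM factors its ratio turned to 0.15. Fcgr4, at 13.3 and 13.7 CPM (-0.04), likewise turned to 0.23 with TMM factors. None of the 5 passed a 2-fold difference, which 3.88% of the 8012 genes did (0.911% higher and 2.97% lower), and none passed 1.5-fold, which 19.6% did.

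The cell classes carried very different sets of receptors. Fcgr1 was highest in macrophages. Its lowest level among the gates for macrophages, monocytes, neutrophils, progenitors and dendritic cells was 8.75 CPM, in vehicle progenitors, and its highest 153 CPM, in THP macrophages, 17.5-fold apart. Monocytes stood between, at 65.2 CPM with THP and 61.3 CPM with vehicle, as did dendritic cells, at 45.7 and 42.1 CPM. Fcgr4 was highest in mature neutrophils, at 65.5 CPM with THP and 64.2 CPM with vehicle, against 13.9 and 16.4 CPM in macrophages and 5.88 and 5.94 CPM in monocytes. The neutrophil intervals (56.0 to 76.1 and 56.6 to 72.6) did not overlap those of the other 6 gates plotted by gate. Fcgr3 was at 146 CPM or more in macrophages, monocytes, progenitors and both neutrophil gates, with its top value of 352 CPM in vehicle mature neutrophils.

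Fcgr2b varied least across those gates, from 35.9 CPM in THP dendritic cells to 100.1 CPM in vehicle immature neutrophils, 2.79-fold. Fcer1g ran from 727 CPM in vehicle progenitors to 3238 CPM in THP mature neutrophils, 4.46-fold. Stromal-gated cells (collagen genes), which are not known to make these receptors, gave the level that free RNA or mixed droplets can lend. It was 28.0 and 17.2 CPM for Fcgr1, 42.0 and 48.8 CPM for Fcgr3, 10.0 and 6.30 CPM for Fcgr2b, 1.33 and 6.30 CPM for Fcgr4 (2 and 15 UMIs) and 447 and 376 CPM for Fcer1g, in 64 THP and 57 vehicle cells. Fcgr1 in progenitors and in vehicle immature neutrophils was therefore at or below that level, and in THP immature neutrophils (28.4 CPM) close to it. Fcgr4 in vehicle monocytes (5.94 CPM) was below it, and in vehicle progenitors (6.99 CPM) close to it. Fcgr3 in dendritic cells was below it too, at 17.4 CPM with THP and 30.9 CPM with vehicle. The top gene of the dendritic cell gate (101 and 128 cells) was Klrd1, a marker of NK cells. The gate's top 10 genes also held the dendritic markers Ciita and Zbtb46 in both libraries. Dendritic markers summed to 1703 and 1468 CPM in this gate, against 193 and 193 CPM for the T or NK cell markers.

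**Figure D1:**
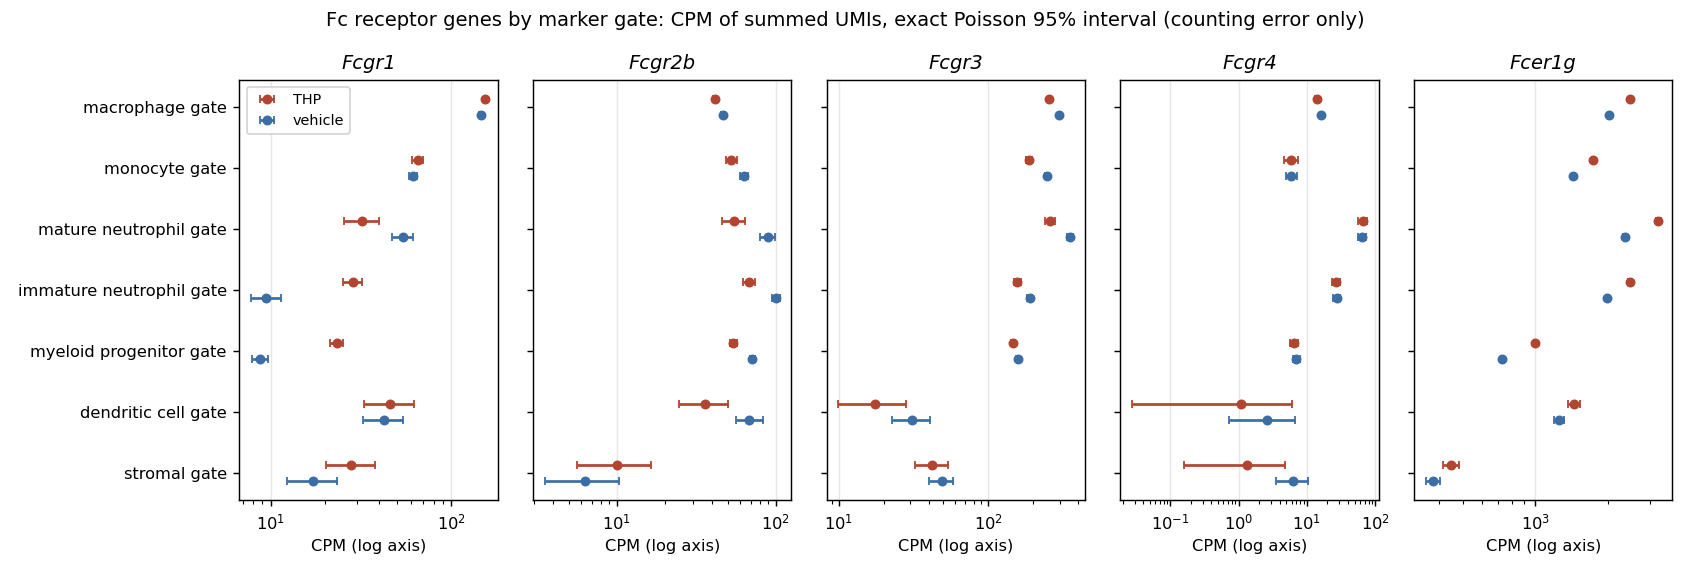
CPM of each gene (log axis, its own range per panel) in 7 marker gates, with THP in red, vehicle in blue and bars for the exact Poisson 95% interval. Fcgr1 peaks in the macrophage gate at 153 and 145 CPM, and Fcgr4 peaks in the mature neutrophil gate at 65.5 and 64.2 CPM.

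Within the macrophage gate Fcgr1 and Fcgr2b were closer between libraries than in the whole culture, Fcgr3 and Fcgr4 were further apart, and Fcer1g was still higher with THP. Fcgr1 was 153 CPM (151 to 155) with THP and 145 CPM (142 to 148) with vehicle, a log2 ratio of 0.08 against 0.41 in all cells. Fcgr3 was 253 CPM (250.4 to 256) and 297 CPM (293 to 301), a ratio of -0.23 against -0.14 in all cells. Fcgr4 was 13.9 CPM (13.2 to 14.6) and 16.4 CPM (15.5 to 17.3), a ratio of -0.22 against -0.04. Fcgr2b was 41.6 CPM (40.4 to 42.8) and 46.6 CPM (45.1 to 48.1), a ratio of -0.16 against -0.38, which was that of the median gene in this gate.

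Fcer1g was 2468 CPM (2459 to 2477) in THP macrophages and 2020 CPM (2010 to 2030) in vehicle macrophages. Its log2 ratio of 0.29 lay at percentile 92.5 of 7903 genes. Across the 7 gates it was higher with THP by 0.21 (dendritic cells) to 0.46 (progenitors and mature neutrophils), and above the median gene in each. The stromal gate, which gave the background level, is among them, at 447 and 376 CPM (0.25). The part of that background in the other gates was not tested. Fcgr3 was lower on library totals in the same 7 gates, but in progenitors (-0.11) it lay above the median gene. Again none of the 5 passed 2-fold in macrophages, where 3.26% of genes did. The macrophages of the libraries were not alike in other genes: Leiden clustering without the 5 members placed 4519 THP and 133 vehicle cells in a macrophage cluster led by Ccl7, Cxcl1 and Ccl4, and 110 THP and 2095 vehicle cells in one led by Dab2 and Itga6.

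**Figure D2:**
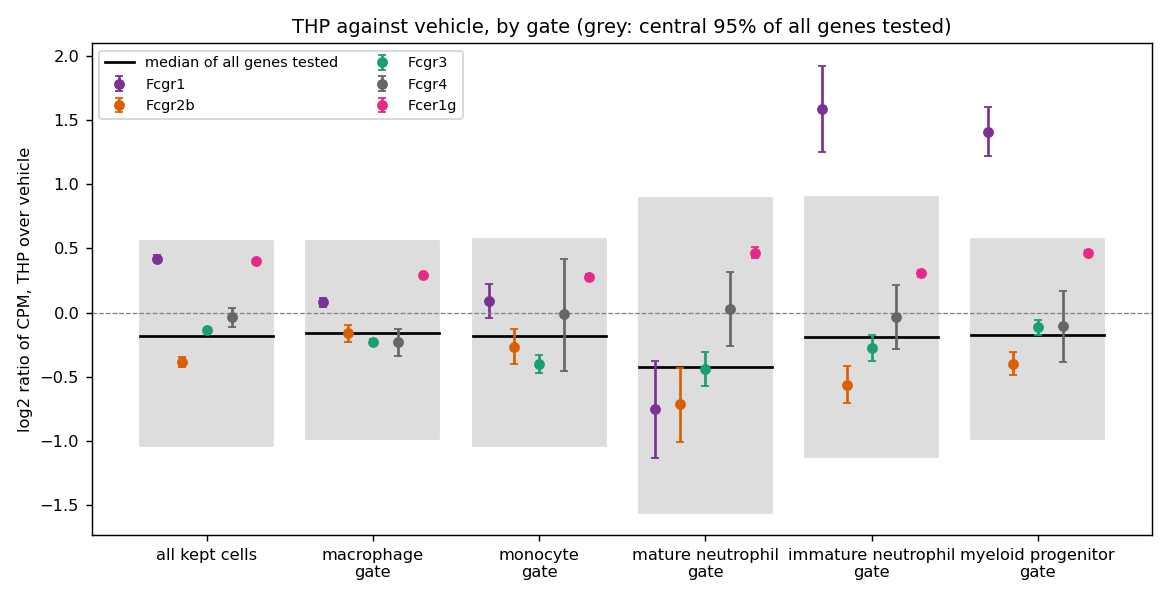
The log2 ratio of CPM, THP over vehicle and without a pseudocount, for the 5 genes in all kept cells and 5 gates, with bars for the counting interval, a black line for the median gene and grey for the central 95% of genes tested (both of CPM + 1). Only Fcgr1 in the immature neutrophil and progenitor gates lies outside the grey range, and Fcer1g lies above the median gene in all 6 columns.

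Fcgr1 passed 2-fold in 2 gates, those of immature neutrophils and progenitors. No member with at least 10 CPM did so in monocytes, mature neutrophils, dendritic cells or stromal cells, where 4.14%, 17.0%, 15.8% and 10.8% of genes passed. In immature neutrophils it was 28.4 CPM (246 UMIs) with THP and 9.48 CPM (110 UMIs) with vehicle, a log2 ratio of 1.49, in a gate where 6.88% of genes passed 2-fold. In progenitors it was 23.2 CPM (653 UMIs) and 8.75 CPM (349 UMIs), a ratio of 1.31, where 3.49% of genes passed. With Leiden clusters in place of gates the ratios were 0.71 and 0.79, short of 2-fold. In both gates Fcgr1 reached the minimum of 10 CPM through the THP library alone. The 6 macrophage markers summed to 283 CPM with THP and 158 CPM with vehicle in immature neutrophils. In progenitors they summed to 254 and 131 CPM, all 6 being detected in each gate. Mertk alone went the other way in immature neutrophils, at 0.81 and 2.33 CPM. In mature neutrophils the markers summed to 411 and 354 CPM, while Fcgr1 was lower with THP, at 32.0 and 53.9 CPM. The part of macrophage RNA in these values was not tested.

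In immature neutrophils and progenitors without a single UMI of the 6 macrophage markers, Fcgr1 almost vanished. It was 3.37 CPM (13 UMIs in 637 THP cells) and 1.80 CPM (12 UMIs in 933 vehicle cells) in immature neutrophils, and the interval of the log2 ratio, -0.35 to 2.16, held 0. In progenitors it was 2.90 CPM (24 UMIs in 573 cells) and 1.70 CPM (21 UMIs in 686 cells), with an interval of -0.14 to 1.69.

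In such cells, and in mature neutrophils without macrophage markers, Fcgr2b and Fcgr3 were still lower and Fcer1g still higher with THP. The Fcer1g ratio was smaller than over the whole gate in progenitors and mature neutrophils. Fcgr2b was 77.2 CPM with THP and 108 CPM with vehicle in immature neutrophils without macrophage markers (log2 ratio -0.48, interval -0.69 to -0.29), and 60.1 and 78.4 CPM in progenitors (-0.38, -0.54 to -0.23). In mature neutrophils it was 59.4 and 123 CPM (-1.04, -1.54 to -0.59), against 54.3 and 89.1 CPM over the whole gate (-0.70). The median gene of the mature neutrophil gate was at -0.43. Fcgr3 was 144 and 181 CPM in immature neutrophils without macrophage markers (-0.34, -0.49 to -0.19). It was 125 and 153 CPM in progenitors (-0.29, -0.40 to -0.18, against -0.11 over the whole gate). In mature neutrophils it was 298 and 453 CPM (-0.60, -0.82 to -0.39). Fcer1g was 2600 and 2077 CPM in immature neutrophils (0.32, against 0.31 over the whole gate). It was 762 and 622 CPM in progenitors (0.29 against 0.46) and 3667 and 2968 CPM in mature neutrophils (0.30 against 0.46).

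**Figure D3:**
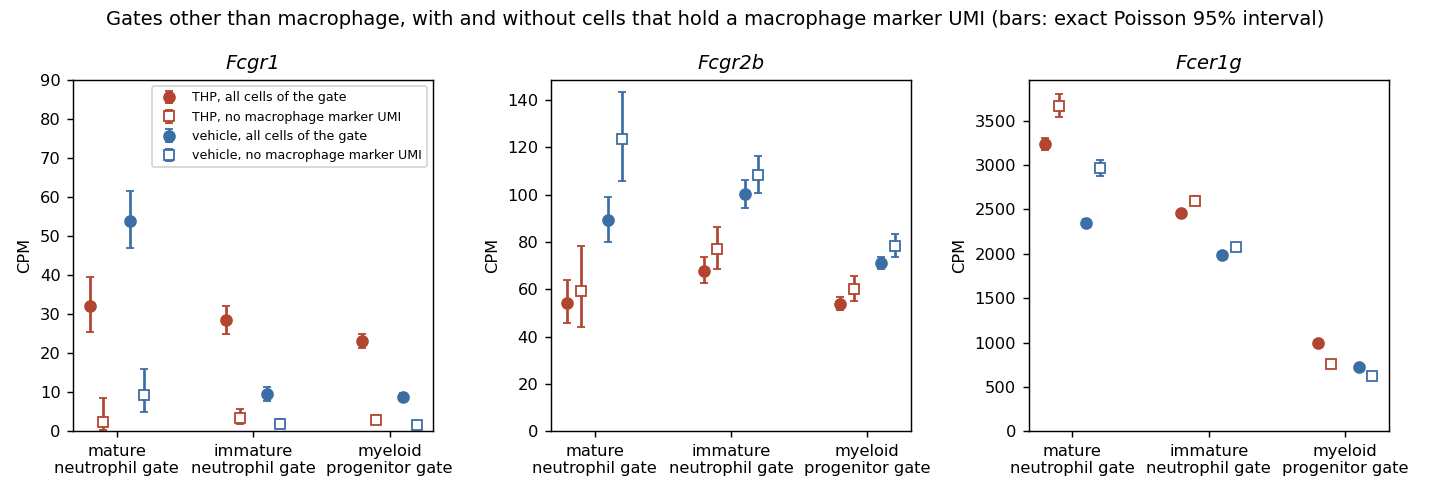
CPM of Fcgr1, Fcgr2b and Fcer1g in 3 gates (linear axes from 0), for all cells of the gate (filled circles) and for cells with no UMI of a macrophage marker (open squares), with bars for the exact Poisson 95% interval. Fcgr1 drops to 3.37 CPM or less in the open squares of immature neutrophils and progenitors, while Fcgr2b stays lower and Fcer1g higher with THP.

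The balance of activating to inhibitory receptor RNA was compared as the UMIs of Fcgr1, Fcgr3 and Fcgr4 over those of Fcgr2b, a ratio within each library that does not depend on scaling. Over all cells there were 7.79 activating UMIs per Fcgr2b UMI with THP (77594 to 9958) and 5.87 with vehicle (70541 to 12012). The log2 difference was 0.41, with an interval of 0.37 to 0.45. The inhibitory share was 11.4% (exact binomial 95% interval 11.2 to 11.6) with THP and 14.6% (14.3 to 14.8) with vehicle.

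Macrophages and monocytes did not show that difference. In macrophages the balance was 10.1 with THP and 9.83 with vehicle, a log2 difference of 0.04 with an interval of -0.03 to 0.10. In monocytes it was 4.91 and 4.97, a difference of -0.02 (-0.17 to 0.13). Immature neutrophils, at 3.12 and 2.26 (0.46, 0.30 to 0.63), and progenitors, at 3.25 and 2.44 (0.41, 0.31 to 0.52), had the lowest balances of the large gates, and both were higher with THP. In those without macrophage markers the balances were 2.27 and 1.98 (0.19, -0.04 to 0.43) and 2.23 and 2.06 (0.12, -0.07 to 0.30).

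Mature neutrophils had a balance of 6.57 with THP and 5.28 with vehicle (0.32, 0.01 to 0.62). The difference was 0.56 (0.07 to 1.05) in those without macrophage markers. Giving both libraries the same mix of gated classes lowered the whole-culture difference from 0.41 to 0.20, and it lowered the log2 ratio of Fcgr1 from 0.41 to 0.17. In these sums, more cells of a class and more RNA per cell contribute alike, and the macrophage gate held 36.1% of THP cells but 25.8% of vehicle cells.

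**Figure D4:**
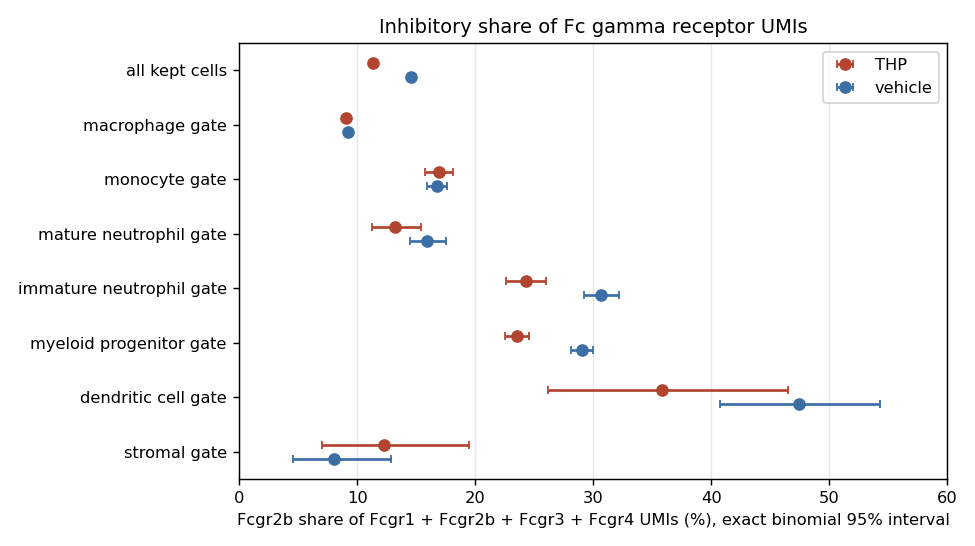
Fcgr2b as a percentage of the UMIs of the 4 Fc gamma receptor genes, in all kept cells and 7 gates, with THP in red, vehicle in blue and bars for the exact binomial 95% interval. The libraries stand apart in all cells (11.4% and 14.6%) but lie close together in macrophages, at 9.0% and 9.2%.

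The make-up of the activating side also differed. Fcgr1 supplied 32.3% of activating UMIs with THP and 24.6% with vehicle over all cells, and 36.4% (36.0 to 36.9) and 31.7% (31.2 to 32.1) in macrophages. Fcgr3 supplied 60.2% and 64.8% in macrophages, and Fcgr4 3.31% and 3.57%. In mature neutrophils Fcgr4 supplied 18.3% and 13.7%. For every activating receptor UMI, macrophages held 5.87 Fcer1g UMIs with THP and 4.41 with vehicle.

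Macrophages in an interferon-high state carried more Fcgr1 and Fcgr4, in both libraries. The state was set by Rsad2, Ifit1, Ifit2, Ifit3, Cxcl10 and Cmpk2, with at least 3 of the 6 on, and held 132 THP and 65 vehicle macrophages (3.02% and 2.29%). Fcgr1 was 262 CPM in interferon-high and 149 CPM in other macrophages with THP, 1.76-fold (interval 1.65 to 1.87). With vehicle it was 282 and 142 CPM, 1.99-fold (1.81 to 2.18). Fcgr4 was 25.2 and 13.5 CPM with THP, 1.86-fold (1.5 to 2.29), and 36.7 and 15.9 CPM with vehicle, 2.31-fold (1.77 to 2.97).

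The other genes did not share this pattern. Fcgr3 was 239 and 254 CPM with THP and 272 and 297 CPM with vehicle, and Fcgr2b was 38.0 and 41.7 CPM with THP and 35.5 and 46.8 CPM with vehicle. Fcer1g was higher in interferon-high cells with THP, at 2641 and 2462 CPM, but not with vehicle, at 1954 and 2021 CPM. The inhibitory share of interferon-high macrophages was 6.74% (5.72 to 7.88) with THP and 5.68% (4.38 to 7.22) with vehicle, against 9.10% and 9.33% in the others. By the number of interferon genes on, Fcgr1 was 194.7, 216 and 288 CPM at 2 (60 cells), 3 (48 cells) and at least 4 with THP. With vehicle the values were 266 (35 cells), 228 (23 cells) and 308 CPM, without that order. Fcgr4 in the same cells was 23.98, 16.4 and 29.996 CPM with THP, also without a rising order. THP cells with 3 on, inside the state, thus had less Fcgr4 than those with 2 on, outside it. With vehicle Fcgr4 rose, at 18.7, 29.99 and 39.9 CPM. Fcgr1 is the gene with the TTCCCAGAA match in its window above, and Fcgr4 had no match to that motif. Other interferon-response motifs were not searched, so the windows do not show whether Fcgr4 holds one.

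**Figure D5:**
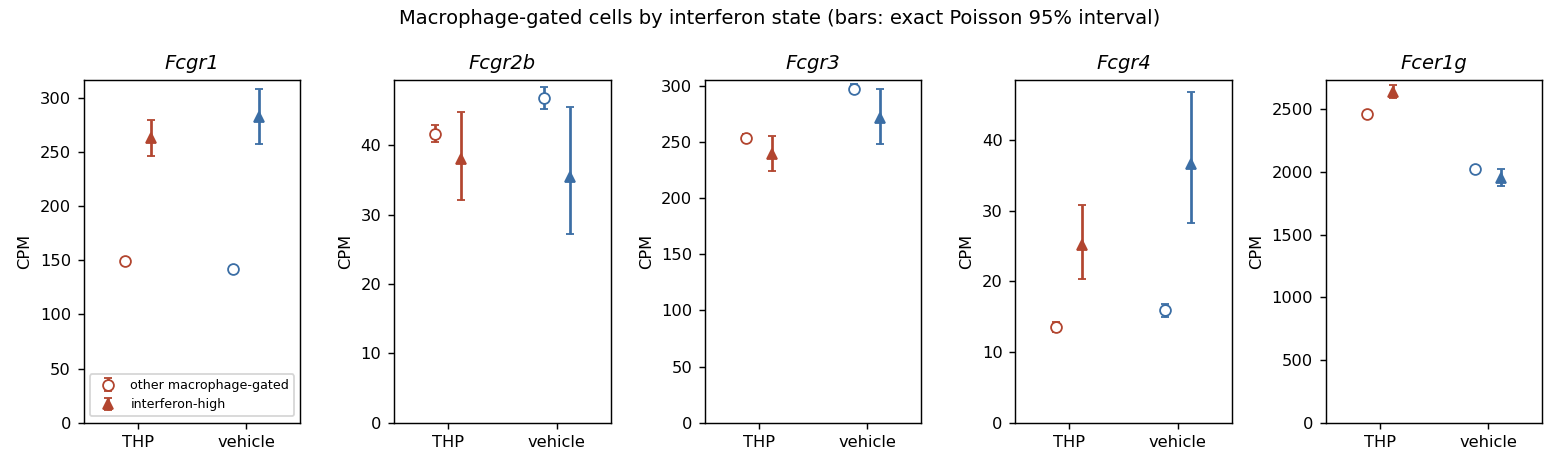
CPM of the 5 genes in macrophage-gated cells (linear axes from 0), with open circles for cells outside the interferon-high state, filled triangles for cells in it, and bars for the exact Poisson 95% interval. Fcgr1 (262 against 149 CPM with THP) and Fcgr4 (25.2 against 13.5 CPM with THP) are higher in the triangles of both libraries.

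Macrophages were also split by the number of macrophage markers on, and the 161 THP and 302 vehicle cells with all 6 differed from the rest. Fcgr4 was 12.5, 13.4, 14.1 and 33.6 CPM at 3, 4, 5 and 6 markers with THP and 16.9, 14.6, 15.5 and 22.9 CPM with vehicle, so it was higher at 6 and showed no common order below. Fcgr2b was 44.6, 39.5, 41.3 and 34.3 CPM with THP and 52.3, 47.6, 44.5 and 28.8 CPM with vehicle, lowest at 6 in both. Fcgr3 was lower at 6 markers than at 3 as well, at 208 against 269.9 CPM with THP and 257 against 321 CPM with vehicle. Fcgr1 was 141 against 153 CPM and 135 against 136 CPM. Median depth of the cells with 6 markers was lower, at 16897 and 18719.5 UMIs against 20926 and 25057.5, and its part in these values was not tested.

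Counted cell by cell, at 5000 UMIs drawn from every cell that had them (10165 THP and 9012 vehicle cells; 1958 and 1966 shallower ones were left out), Fcer1g was detected in 100% and 99.9% of macrophages. Fcgr3 was detected in 66.9% and 71.9%, Fcgr1 in 49.9% and 46.1%, Fcgr2b in 17.2% and 18.5% and Fcgr4 in 6.15% and 7.82%. Without thinning the shares in the same gate were 99.9% and 100.0%, 93.4% and 95.7%, 86.8% and 86.1%, 49.5% and 55.2%, and 24.1% and 28.7%, at median depths of 21854.5 and 24048 UMIs. Stromal cells at 5000 UMIs, as the background, had Fcer1g in 41.3% and 39.3%, Fcgr3 in 6.35% and 8.93% and Fcgr1 in 3.17% and 3.57%. Unthinned, at medians of 19639.5 and 39108 UMIs, they were 59.4% and 73.7%, 20.3% and 33.3%, and 15.6% and 19.3%. An activating receptor and Fcgr2b were seen together in 14.6% and 16.2% of thinned macrophages, and Fcgr2b without an activating receptor in 2.62% and 2.26%.

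Other genes of the pathway were read against the same background, 3.88% of genes past 2-fold. Of the activating receptors that pair with the Fcer1g chain, 8 of the 10 listed were in the files and 4 reached 10 CPM, with a median log2 ratio of 0.51 against -0.18 for all genes. Clec4e (Mincle, a receptor for mycobacterial glycolipids) was 324 CPM with THP and 93.3 CPM with vehicle, a log2 ratio of 1.78, and was the 1 gene of that list past 2-fold. In macrophages it was 349 and 90.5 CPM (1.93). Clec4d, its partner receptor, was 728 and 411 CPM (0.82). Clec4n (Dectin-2) was 75 and 65.3 CPM (0.20), and Pira2 86.8 and 83.7 CPM (0.05). Tyrobp (DAP12), a chain with the same kind of motif, was 2390 and 2158 CPM (0.15).

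Of 11 inhibitory myeloid receptors, all at 10 CPM or more, none was 2-fold higher and 1 was 2-fold lower: Lilrb4a, at 36.2 CPM with THP and 74.8 CPM with vehicle (-1.03). Cd300lf was 10.1 and 18.6 CPM (-0.82), Cd200r1 44.0 and 70.8 CPM (-0.68), and Siglece, the opposite way, 26.2 and 17.4 CPM (0.57). The median of that list was -0.02. Fcrls, an Fc receptor-like gene, was 27.1 and 15.7 CPM (0.75), and Fcgrt, the neonatal Fc receptor, 30.2 and 31.2 CPM (-0.05).

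Downstream, none of 11 measured kinases and adaptors and none of 8 brakes passed 2-fold in either direction. The kinase Btk was 47.3 CPM with THP and 74.4 CPM with vehicle (-0.64). Inpp5d, the SHIP1 phosphatase that FcγRIIb recruits, was 52.9 and 78.9 CPM (-0.57), and in macrophages 62.2 and 99.2 CPM (-0.67). Of 14 measured effectors of uptake, 1 was 2-fold lower and none higher: Vav3, a Rac exchange factor, at 34.6 and 70.3 CPM (-1.0). Was, the actin regulator, was 74.1 and 119 CPM (-0.67), Plcg2 41.4 and 65.0 CPM (-0.64), and the list's median was -0.30.

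Across 12 sums of gated class and library, each with at least 100 cells, the genes most like each member were named by Pearson's r of log2 (CPM + 1), among 7618 genes. Fcgr1 was most like Cd68, the macrophage lysosomal protein (r = 0.98), then Tubb2a and Tnfrsf11a (0.97 each), Capg and Prdx4 (0.96 each). Fcgr2b was most like Klf13 (0.98), Fcgr3 like Atp11a (0.95), Fcgr4 like Arap3 (0.97) and Fcer1g like Carhsp1 (0.96). Among the members, the most alike pair was the neighbours Fcgr3 and Fcgr4 (0.76), and the least alike was Fcgr1 and Fcgr2b (-0.60). The 12 sums come from 6 classes in the same 2 libraries, so they are not independent. From cell to cell within thinned macrophages, r between members was -0.03 to 0.14, too weak to read in sparse counts.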

How the data were processed

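The deposited values are whole-number UMI counts for each gene in each barcode, 1 matrix per library, made by the authors with Cell Ranger, STAR and bcl2fastq on build mm10, per the submitters' processing notes. The file headers give software version 3.1.0 and matrix format version 2. Other versions, and any use of strand in counting, were not given in the sources used here. The 129Sv cells were counted against that build, and its effect on these genes was not tested.

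Barcodes were kept with at least 500 genes, at least 1000 UMIs and at most 10% mitochondrial UMIs (13193 to 12123 with THP, 11584 to 10978 with vehicle). No doublet caller was run and no cell was removed as a doublet. UMIs were summed per library or gate in Python 3.11.15 with numpy 2.4.6 and scipy 1.17.1, divided by the total (CPM) and compared as log2 of CPM + 1. With 1 library per group no test was made. Intervals are exact Poisson (CPM), exact binomial (shares) and conditional binomial or normal on the log scale (ratios), at 95%, for counting error only. Genes were counted as past a fold limit if they had at least 10 CPM in 1 library. A gate needed 50 cells.

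The members, marker lists and pathway lists were chosen with earlier results of these data known. The genes named from each pathway list were up to 5 of at least 10 CPM with the largest ratio, and genes most like a member were the 5 with the highest r; some genes these rules name are not reported here. Alternatives were TMM and RLE factors (edgeR 4.0.16, R 4.3.3), other cell filters and limits, equal weight per cell, thinning to 5000 UMIs, a length correction, and Leiden clusters (scanpy 1.11.5). The summing, ratio and thinning steps were tested on simulated data. Cells without a macrophage marker UMI were examined after the data were seen. Positions are from GENCODE M21, promoter sequences from RefSeq.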

Additional observations from a re-analysis of the deposited data

Results flagged for a closer look

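Barcodes that the cell filter left out, 1070 with THP and 606 with vehicle, entered none of the main comparisons. Fcgr1 and Fcer1g stood above the vehicle level there, and Fcgr2b below it. The share of all genes with such differences was not counted, so this does not set the members apart. Fcgr1 was 99.8 CPM (87.3 to 114) in the THP barcodes left out and 54.5 CPM (43.1 to 68.1) in the vehicle ones. Fcer1g was 1502 CPM (1453 to 1553) and 1042 CPM (990 to 1096). Fcgr2b was 55.6 CPM (46.3 to 66.1) and 83.2 CPM (68.9 to 99.6), and Fcgr3 194 CPM (176 to 212) and 199 CPM (176 to 223). The differences of Fcgr1, Fcer1g and Fcgr2b had the direction seen in the kept cells, but these barcodes come from the same libraries. Fcgr4 was also higher in the THP barcodes, at 18.2 CPM (13.1 to 24.6) against 11.2 CPM (6.40 to 18.2), but these intervals overlap.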

How the results depend on the processing

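With 1 library per group, leaving out a replicate was impossible. No paired analysis was possible because each group had 1 library. Dendritic cell gates with at least 4 markers on, stromal gates with at least 4 on, and dendritic clusters gave no value. The main limits are the single libraries, the score-based gates, the few UMIs in dendritic and stromal gates, and RNA of other cells in a droplet. Stromal Fcer1g was 447 and 376 CPM, but 128 and 53.0 CPM in the 29 and 18 stromal cells with no macrophage marker UMI.

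Over all cells, TMM and RLE factors gave log2 ratios of 0.70 and 0.69 for Fcgr1, -0.10 and -0.10 for Fcgr2b, 0.15 and 0.14 for Fcgr3, 0.23 and 0.22 for Fcgr4, and 0.69 and 0.68 for Fcer1g, so Fcgr3 and Fcgr4 turned. The counts of genes past 2-fold, 73 higher and 238 lower, became 138 and 69 with either factor, and 187 and 1387 at 1.5-fold. Equal weight per cell gave 0.46 for Fcgr1, -0.57 for Fcgr2b, -0.29 for Fcgr3, -0.34 for Fcgr4, 0.33 for Fcer1g and 0.46 for the activating to inhibitory difference. The same mix of classes gave 0.17, -0.30, -0.22 and 0.30 for Fcgr1, Fcgr2b, Fcgr3 and Fcer1g, and 0.20 for the balance. The length correction gave 0.51 for Fcgr1, -0.14 for Fcgr2b, -0.22 for Fcgr3, -0.13 for Fcgr4 and 0.20 for Fcer1g. Thinning gave -0.17 for Fcgr3 and 0.38 for Fcer1g, and Fcgr3 alone as activating gave 0.25 for the balance. The cause of these shifts was not tested.

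Thinning to 5000 UMIs took the share of all cells with a UMI from 50.5% to 32.5% (THP) and 40.2% to 24.5% (vehicle) for Fcgr1, 42.5% to 19.3% and 52.7% to 24.5% for Fcgr2b, 76.6% to 56.8% and 81.6% to 61.7% for Fcgr3, 17.4% to 5.75% and 18.5% to 5.93% for Fcgr4, and 98.2% to 97.1% (vehicle) for Fcer1g.

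In the macrophage gate, markers on at 2 UMIs per 10000 gave 0.038 for Fcgr1. At least 4 markers on gave 0.035 for Fcgr1, 0.31 for Fcer1g and -0.0035 for the balance, which turned. Leiden clusters gave -0.0047 for Fcgr1 and -0.014 for the balance, both turned, -0.12 for Fcgr4 and 0.32 for Fcer1g. In other gates these values turned, most of them near 0 or from few UMIs. With markers on at 2 UMIs per 10000 they were 0.010 for the monocyte balance, -0.18 for Fcgr4 in mature neutrophils, and 0.31 for Fcgr3 and 0 for Fcgr4 in dendritic cells. With at least 4 markers on it was -0.19 for Fcgr4 in mature neutrophils. With clusters they were -0.12 for Fcgr1 in monocytes, 0.067 for Fcgr1 and -0.28 for Fcgr4 in mature neutrophils, 0.12 and 0.14 for Fcgr4 in immature neutrophils and progenitors, and 0.50 for Fcgr3 in stromal cells. Without macrophage marker UMIs they were -1.93 for Fcgr1 and 0.11 for Fcgr4 in monocytes (24 and 25 cells), -0.015 for Fcgr4 in mature neutrophils, 1.94 for Fcgr3 and 0 for Fcgr4 in dendritic cells, and 0.59 for Fcgr3 in stromal cells. Clusters gave 0.71 for Fcgr1 in immature neutrophils and 0.79 in progenitors.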

Other observations

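The mast cell or basophil gate held 53 THP cells but 33 vehicle cells, under the minimum of 50, so it entered no comparison. Its THP cells carried 352 CPM of Fcgr3 (298 to 414), 123 CPM of Fcgr2b (91.8 to 161) and 1913 CPM of Fcer1g (1783 to 2049), with 4 UMIs of Fcgr1 and 1 of Fcgr4. Fcer1a and Ms4a2, which with the Fcer1g chain build the high-affinity IgE receptor, were 596 and 884 CPM there. In THP macrophages they were 0.044 and 0.061 CPM, so Fcer1g was present in macrophages nearly without its IgE partners.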
